A study of Equus caballus with 4 samples.

Results

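FOS, KLF4 and DUSP2 are 3 genes of the immediate early response, and their transcripts were read in equine sarcoids and in skin of the same animals. The members were all probes of a horse array whose design accession is a RefSeq transcript of any of the 3 genes, found through the RefSeq gene table of the horse. The 3 genes are among 1031 that the array's probes could be named for in this way, and they have 7 of its 43603 probes: 1 for FOS (transcript XM_001491972), 1 for KLF4 (XM_005605684) and 5 for DUSP2 (XM_001493078). The genes were chosen by their log2 ratios of sarcoid over skin, which were below 0 in an earlier look at the same arrays, so their sarcoid to skin ratios are described here without a test.

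Sarcoids are locally invasive fibroblastic tumours of horse skin. RNA of 1 sarcoid and of tumour-distant skin was taken from each of 4 horses and hybridised together on 1 two-colour array per horse, the sarcoid in the Cy3 channel and the skin in the Cy5 channel. Breed, age and sex of the horses, lesion type and body site are not given in the sources used here. No treatment is named beyond storage of the tissue in RNAlater at low temperature. For 3 of the arrays the free-text field speaks of embryonic stem cells, which goes against the tissue and source fields, and the latter were used. Horses are numbered 1 to 4 as in the labels.

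Immediate early genes are switched on within minutes of a growth factor, injury or other stress, without new protein synthesis, and their RNAs are short-lived. Growth factor receptors signal through RAS and the MAP kinases to transcription factors already in the nucleus, such as SRF and CREB, which start the transcription of these genes. FOS pairs with JUN proteins to form the AP-1 transcription factor. KLF4 is a zinc-finger transcription factor that in skin is best known from the differentiating layers of the epidermis, where it is needed for the barrier. DUSP2 is a nuclear phosphatase that removes phosphate from MAP kinases and so feeds back on the pathway that induces it, and it is best known from leukocytes.

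In each channel of each array 67.2% to 80.7% of the spots passed the scanner's test for a signal well above background. The 4 arrays shared 1 slide and 1 scan date, and the dyes were swapped on 0 of them. A dye effect that is specific to a probe is therefore part of every ratio. The small number of arrays limits the precision, and whether a difference reflects fewer cells of a type or less RNA per cell cannot be told apart in whole tissue. All 7 probes were well above background in both channels on all 4 arrays, and 0 of their spots were saturated. The label of the tissue could be set against a few named marker genes. Their lists were chosen with earlier results of these arrays known, so they are no independent check of it. All 8 measured fibroblast genes were called higher in the sarcoids, as were 5.84% of all targets. Among the 8 was LUM (lumican, a collagen-binding proteoglycan), whose log2 ratio was 4.24 ± 1.16 over 4 horses (limma adjusted p = 0.00423). KRT15, a keratin of basal keratinocytes, was lower at -5.12 ± 0.11 (limma adjusted p = 6.28e-05). Few probes of this array carry a gene symbol, and 845 of the 19608 targets tested had one.

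FOS was lower in the sarcoid than in the skin of every horse, by very different amounts. Its median spot signal in the sarcoid was 655.5 in horse 1, 4682.5 in horse 2, 1083.5 in horse 3 and 18429 in horse 4, on the scanner's linear scale. In the skin the median spot signal was 2725, 113300, 74646 and 116596 in the same order. The skin of horse 1 was far dimmer than the other 3 skins, and the sarcoids of horses 1 and 3 were dimmer than those of horses 2 and 4. Local background around these spots was 20 to 23 in Cy3 and 46 to 52 in Cy5, so background was a small part of each signal.

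After background correction and loess normalisation within each array, the log2 ratio of FOS, sarcoid over skin, was -2.14, -3.49, -5.41 and -1.38 in horses 1 to 4. These ratios correspond to skin levels 4.40, 11.2, 42.6 and 2.60 times those of the sarcoid. The mean log2 ratio was -3.10 ± 1.77 (SD, n = 4). Horse 3 stood lowest and horse 4 nearest to 0. Of all 19608 targets, 1.38% had a lower mean log2 ratio than FOS. On the array of horse 3, the local background of the FOS spot carries the scanner's flag for an unusual background. On that array 4.35% of the spots carry this flag in either channel. With such spots also left out, a choice made after seeing the data, FOS rested on 3 horses and its mean log2 ratio was -2.39 ± 1.04.

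To set the channels of different horses side by side, the average intensities of the arrays were also brought to a common distribution, which gives a log2 level per tissue. The FOS level in the sarcoids was 9.46, 12.81, 10.39 and 14.65 in horses 1 to 4, a span of 36.4-fold between the lowest and the highest. In the skins the level was 11.60, 16.29, 15.80 and 16.03, a span of 25.8-fold. The order from low to high was sarcoid 1, sarcoid 3, skin 1, sarcoid 2, sarcoid 4, skin 3, skin 4 and skin 2. The 3 skins of horses 2, 3 and 4 lay above all 4 sarcoids, while the skin of horse 1 lay below the sarcoids of horses 2 and 4, so the groups overlapped through that skin. The mean level was 14.93 ± 2.23 in skin and 11.83 ± 2.35 in sarcoid (SD, n = 4).

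The 3 skins other than that of horse 1 differed among themselves by 0.49 at most on the log2 scale (15.80 to 16.29). The log2 level of the skin of horse 1 minus their mean was -4.44, so it was 21.7-fold lower. With the scanner software's processed signals in place of these levels it was 17.0-fold lower. Among the 19575 targets measured on all 4 arrays, 0.194% had a skin span at least as wide as that of FOS, and 0.444% had a sarcoid span at least as wide. The median target spanned 0.45 over the skins and 0.78 over the sarcoids on the log2 scale. The whole Cy5 channel of horse 1 was also dimmer before normalisation, with a median probe signal of 162 against 220 to 236 on the other arrays.

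**Figure D1:**
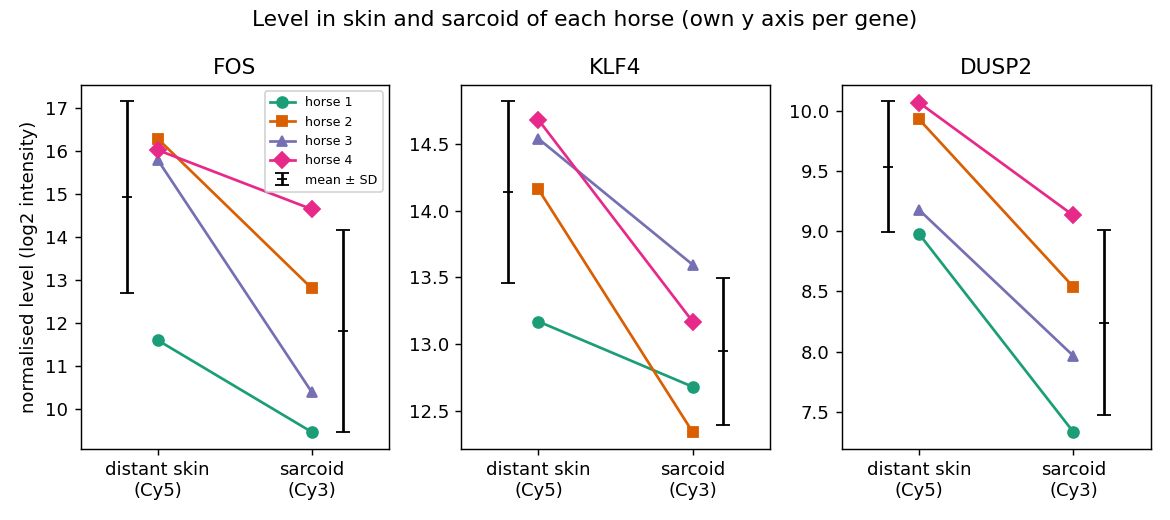
Normalised log2 level (y axis, own scale for each gene) of FOS, KLF4 and DUSP2 (its brightest probe) in the distant skin and the sarcoid (x axis) of horses 1 to 4, with a line joining the tissues of a horse and black bars for mean ± SD. Every line falls from skin to sarcoid, and the FOS level of the skin of horse 1, at 11.60, sits far below the other 3 skins at 15.80 to 16.29.

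KLF4 was lower in the sarcoid than in the skin of all 4 horses, with a smaller and more even difference. Its median spot signal in the sarcoid was 5850, 3450.5, 9180 and 6997 in horses 1 to 4, and in the skin 8605, 24440, 33143 and 45941. The transcript was thus bright in both tissues, with the highest signals in the skins of horses 3 and 4. The log2 ratio was -0.49, -1.82, -0.94 and -1.51 in horses 1 to 4, with a mean of -1.19 ± 0.59 (SD, n = 4), which is a skin level 2.28 times that of the sarcoid. Horse 1 had the smallest difference and horse 2 the widest. A lower mean ratio than that of KLF4 was found for 6.17% of all targets.

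The normalised KLF4 level was 12.68, 12.34, 13.59 and 13.17 in the sarcoids and 13.17, 14.16, 14.54 and 14.68 in the skins. The groups overlapped, since the skin of horse 1 lay at the level of the sarcoid of horse 4 and below that of horse 3. In the skins the level spanned 2.85-fold and in the sarcoids 2.39-fold. The skin of horse 1 was again the lowest of the 4, and its log2 level minus the mean of the others was -1.29 (-0.86 with processed signals). On the array of horse 4 the background of the KLF4 spot carries the flag described for FOS, and without that array the log2 ratio was -1.12 ± 0.67 (n = 3).

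DUSP2 was lower in every sarcoid by an amount that varied little between horses. Over its 5 probes the median spot signal in the sarcoid was 136 to 176 in horse 1, 216.5 to 293 in horse 2, 211 to 251 in horse 3 and 274 to 379 in horse 4. In the skin it was 325 to 450.5, 945.5 to 1274.5, 508 to 700 and 1181.5 to 1675. The median probe signal of the arrays was 113.5 to 187 in Cy3 and 162 to 236 in Cy5. The brightest probe, A_69_P103545, represented the gene, and its log2 ratio was -1.64, -1.39, -1.21 and -0.93 in horses 1 to 4. The mean was -1.29 ± 0.30 (SD, n = 4), a skin level 2.45 times that of the sarcoid, and 5.60% of all targets had a lower mean ratio.

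The 5 DUSP2 probes share 1 transcript, so they repeat the measurement of the same RNA and add no horses. Their mean log2 ratios ran from -1.29 to -1.20. Within a horse they differed by 0.08 to 0.17 at most on the log2 scale, while the brightest probe differed by 0.71 between horses 1 and 4. All 5 put the horses in the same order, with horse 1 lowest and horse 4 nearest to 0. FOS and KLF4 have 1 named probe each, so no second probe could be set beside theirs.

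**Figure D2:**
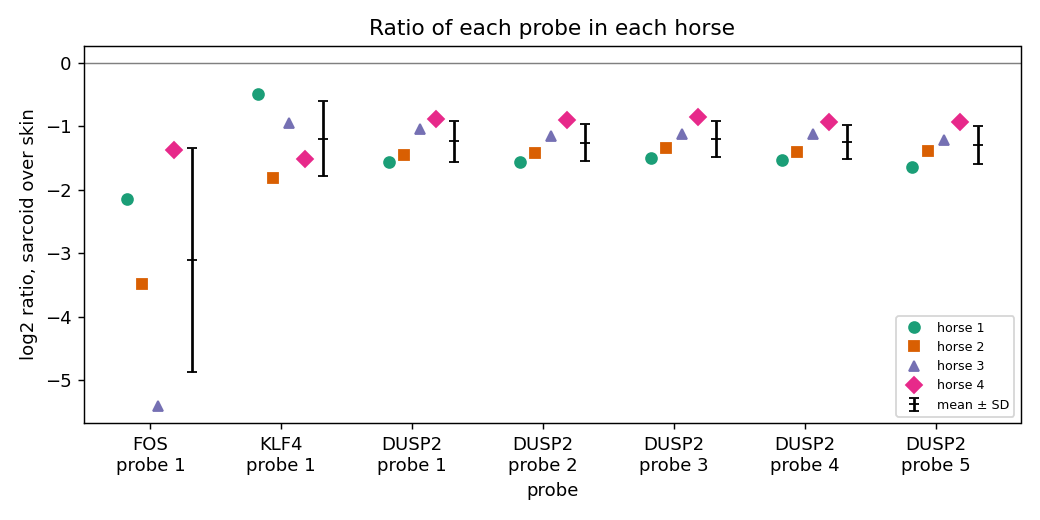
Log2 ratio of sarcoid over skin (y axis) for each of the 7 probes (x axis) in horses 1 to 4, with black bars for mean ± SD over the 4 horses. All 28 points lie below 0, FOS spreads from -5.41 to -1.38, and the 5 probes of DUSP2 repeat the same order of horses.

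The normalised DUSP2 level of the brightest probe was 7.33, 8.54, 7.96 and 9.13 in the sarcoids and 8.97, 9.93, 9.17 and 10.06 in the skins. The tissues overlapped across horses, as the sarcoid of horse 4 lay above the skin of horse 1. Within a horse the skin was always the higher. Horse 1 was lowest and horse 4 highest in both tissues, but with processed signals horse 3 had the lowest skin and horse 2 the highest. The DUSP2 ratio spanned no more than that of a usual target, since 54.2% of targets had at least as wide a span.

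All 3 genes had a log2 ratio below 0 in all 4 horses, as did 22.7% of all targets, and the choice of the genes fixed this. The genes did not rank the horses alike. Horse 3 had the widest difference for FOS, horse 2 for KLF4 and horse 1 for DUSP2, while the smallest was in horse 4 for FOS and DUSP2 and in horse 1 for KLF4. The values also moved with the processing. With the background model fitted to all spots, outlier spots included, the log2 ratios of DUSP2 in horses 1 to 4 were -1.64, -0.72, -0.15 and -0.93, with a mean of -0.86 ± 0.62, so the ratio of horse 3 came close to 0. For FOS the mean was -2.87 and for KLF4 -1.16 in that setting. Median centring of the arrays in place of loess gave -3.53 for FOS, -1.66 for KLF4 and -1.51 for DUSP2, and the widest DUSP2 difference was then in horse 2.

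**Figure D3:**
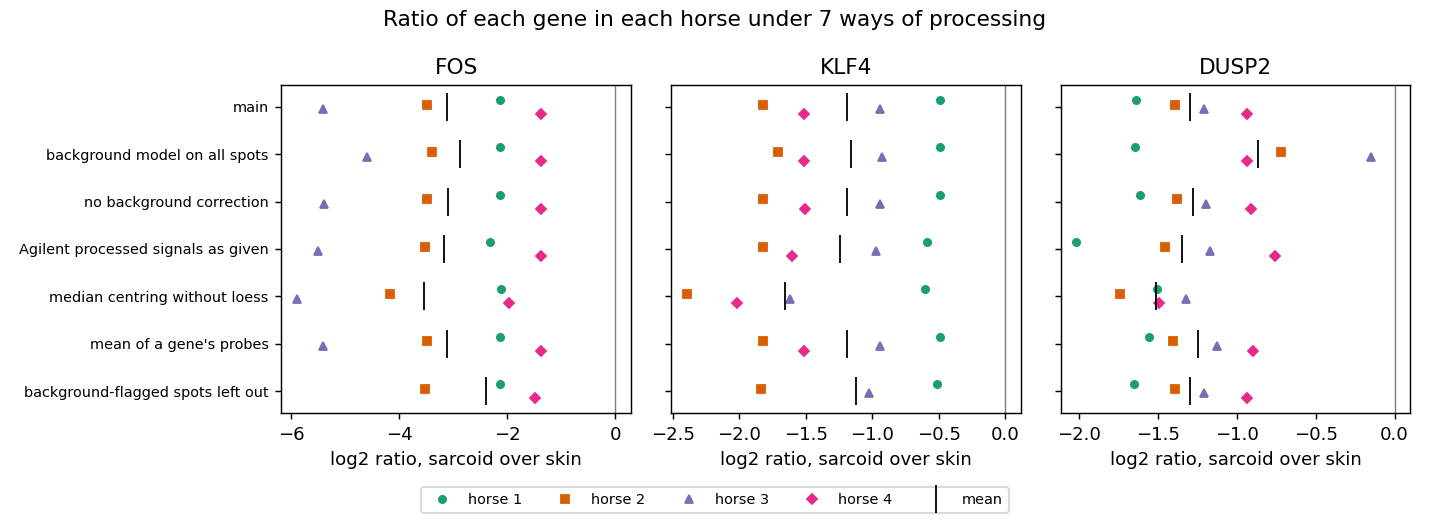
Log2 ratio of sarcoid over skin (x axis, own scale for each gene) of FOS, KLF4 and DUSP2 in horses 1 to 4 under 7 ways of processing (y axis), with a black tick at the mean. Every point lies below 0, and the DUSP2 ratio of horse 3 moves from -1.21 to -0.15 when the background model is fitted to all spots.

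FOSL2 (Fra-2), another partner of JUN proteins in AP-1, was the only other gene of the list of immediate early transcription regulators that could be measured by name, of 32 listed. The list includes JUN, EGR and NR4A genes, which are not analysed here. The FOSL2 level was 9.75, 10.96, 9.86 and 10.91 in the sarcoids and 11.39, 11.67, 11.77 and 11.87 in the skins. All 4 skins lay above all 4 sarcoids. FOSL2 fell by 1.30 ± 0.56 on the log2 scale (SD, n = 4; limma adjusted p = 0.0212), against 9.90% of all targets called lower. The limma adjusted p was 0.0898 without horse 1, 0.0592 without horse 3, 0.052 without horse 4 and 0.087 with the background model on all spots.

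None of the 5 other measured immediate early products passed in limma, with 0 at an unadjusted p under 0.05 and 0 in the fit of the separate channels (two-channel fit). PTGS2, the inducible cyclooxygenase, was at -0.03 ± 0.73, and SOCS3, a feedback inhibitor of cytokine receptors, at -0.07 ± 0.11. The SOCS3 signal was well above background on all 4 arrays, but its level was low, 6.32 to 6.62 in the sarcoids and 6.40 to 6.67 in the skins. CYP2A13, with 0 sarcoids well above background, was at 6.19 to 6.50 in the sarcoids. The SOCS3 ratio may thus be compressed near the floor. RGS1 and RGS2, which speed the shut-off of G protein signalling, were at -0.58 ± 1.31 and 0.44 ± 1.28. PLAUR, the urokinase receptor, was at 0.41 ± 1.70. The ratio of PLAUR was 2.58 in horse 1 and -1.57 in horse 4, so the horses went opposite ways. The median of the 5 was -0.03, against 0.00 for all targets.

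Among the MAP kinase phosphatases and feedback inhibitors, SPRED1, an inhibitor of RAS signalling, was the only measured gene besides DUSP2. Its log2 ratio was 1.59, 0.15, 1.95 and 2.03 in horses 1 to 4, and it rose by 1.43 ± 0.87 (limma adjusted p = 0.0478), while 5.84% of all targets were called higher. Adjusted p values of SPRED1 above the threshold in limma included 0.161 without horse 1, 0.141 without horse 3, 0.135 without horse 4 and 0.197 with the background model on all spots. DUSP2 and SPRED1 both act against the MAP kinase pathway, at different steps. Their ratios had opposite signs in each horse, but the choice of the genes fixed the sign of DUSP2.

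Of 6 measured ligands, receptors and adaptors upstream, 1 was called higher and 2 lower, against 5.84% and 9.90% of all targets. FGF7, a fibroblast growth factor that acts on epithelium, rose by 1.49 ± 0.72. The receptors MET and FGFR2 fell by 3.29 ± 2.01 and 2.98 ± 1.62 on the log2 scale. Limma gave adjusted p = 0.0267 for FGF7, 0.0434 for MET and 0.0318 for FGFR2. Without horse 1 these were 0.0869, 0.153 and 0.121, and without horse 2 they were 0.0929, 0.0797 and 0.088. The call of MET was also lost without horse 3 (0.104), and those of FGF7 and FGFR2 without horse 4 (0.0767 and 0.0616). FGF2, KIT and the adaptor GRB2 were at 0.16, -0.01 and 0.06 and did not pass. Other probes of the receptors gave smaller differences, down to -1.08 for MET and -0.40 for FGFR2. With the probes of a gene averaged, the mean log2 ratio was -1.84 for MET and -1.07 for FGFR2. The ratio of MET was -4.59, -2.09, -5.36 and -1.11 in horses 1 to 4. For MET and FOS alike horse 3 was lowest and horse 4 nearest to 0, and horses 1 and 2 changed places.

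Of 10 measured genes that textbooks describe as having AP-1 sites, 2 rose and 8 did not pass, while 5.84% of all targets were called higher. TIMP1, an inhibitor of matrix metalloproteinases, rose by 2.14 ± 0.80 (limma adjusted p = 0.012) and VIM, the intermediate filament protein vimentin, by 1.58 ± 0.47 (limma adjusted p = 0.00793). MMP1, MMP3 and MMP9, proteases of the extracellular matrix, were at 1.37 ± 1.11, -0.63 ± 1.91 and -0.08 ± 0.51. The ratio of MMP1 was above 0 in all 4 horses, and MMP1 passed with Agilent's processed signals and in the two-channel fit. Other probes of MMP1 gave smaller mean log2 ratios, down to 0.36. CXCL8 and IL6, inflammatory signals, were at -0.41 ± 0.64 and 0.28 ± 0.17. The 10 ratios had a median of 0.10, with 5 above 0 and 5 below.

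Heat shock proteins are a separate family of stress-induced genes, and 6 were measured. Of these 2 were called lower and 1 higher, against 9.90% and 5.84% of all targets. HSPA1B, an inducible HSP70, fell by 2.02 ± 0.44 on the log2 scale (limma adjusted p = 0.00322). Its ratio was -2.42, -1.43, -1.95 and -2.26 in horses 1 to 4, its second probe had a mean of -0.84, and it has a near-identical copy, HSPA1A, whose RNA the probe may also bind. HSPA9, a mitochondrial HSP70, fell by 0.77 ± 0.31, and HSP90B1, a chaperone of the endoplasmic reticulum, rose by 1.93 ± 0.80. The limma adjusted p was 0.0289 and 0.0165 for these. For HSPA9 it was 0.095 without horse 1, 0.103 without horse 2, 0.0827 without horse 3 and 0.0684 with Agilent's processed signals. For HSP90B1 it was 0.0559 without horse 3 and 0.0643 without horse 4. HSPA8, HSP90AA1 and HSP90AB1, of which HSPA8 and HSP90AB1 are the constitutive forms, were at 0.18 ± 0.69, -0.20 ± 0.53 and -0.43 ± 0.47 and did not pass.

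Over all 7 lists 28 genes other than the members were measured, of 168 listed, and 5 rose and 5 fell, against 15.7% of all targets called in either direction. These calls depend on the arrays and on the background model. Without horses 1, 2, 3 and 4 in turn, 4, 6, 4 and 5 of the 28 passed, and with the background model on all spots only HSPA1B passed. VIM and HSPA1B passed whichever horse was left out, and HSPA1B passed under all 14 alternatives.

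**Figure D4:**
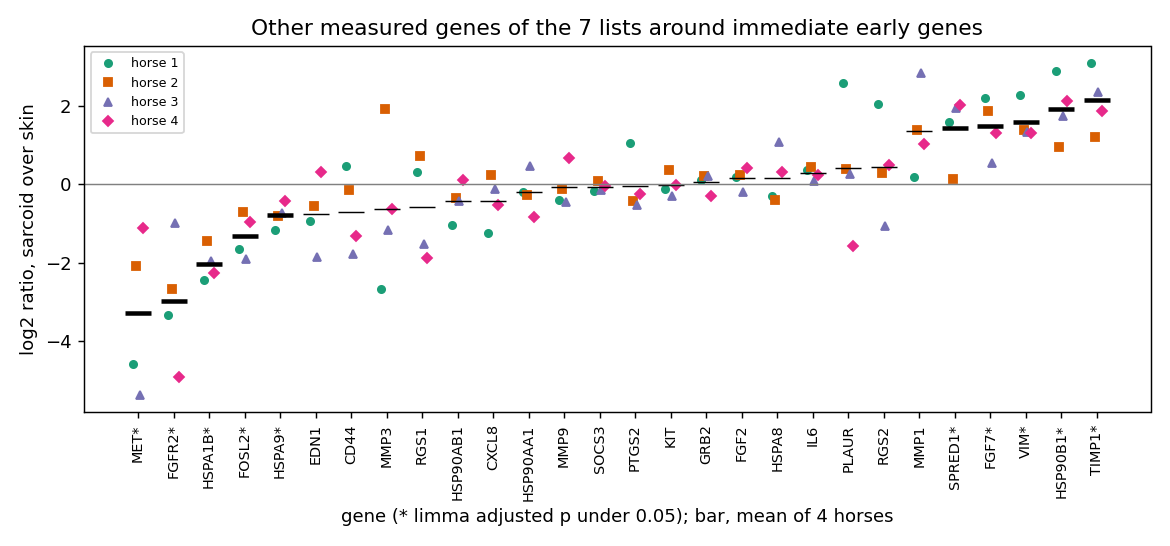
Log2 ratio of sarcoid over skin (y axis) of the 28 other measured genes of the lists (x axis, ordered by mean), with a point for each horse, a bar for the mean and an asterisk for a limma adjusted p under 0.05. The 5 genes that fell run from MET at -3.29 to HSPA9 at -0.77, and the 5 that rose from SPRED1 at 1.43 to TIMP1 at 2.14.

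The low FOS level in the skin of horse 1 was set beside the other 9 measured genes of the immediate early and feedback lists. RGS1 had the same pattern, with skin levels of 7.05, 10.30, 10.13 and 10.86 in horses 1 to 4. The log2 level of the skin of horse 1 minus the mean of the others was -3.38 for RGS1 and -1.02 for RGS2. The same difference was -0.01 for PTGS2, 0.37 for SPRED1 and -0.05 for SOCS3, whose level lay near the floor. The skin of horse 1 was the lowest of the 4 for 3 of the 7 genes that are no members (FOSL2, RGS1 and RGS2) and for 26.6% of all targets. With processed signals it was the lowest for 2 of the 7, RGS1 and RGS2, and for 5.75% of all targets. Of the members, FOS and KLF4 had it lowest on both scales, and DUSP2 on the first. In the sarcoids RGS1 levels were 7.37, 11.04, 8.61 and 8.98, so horse 1 was the lowest there too, as it was for FOS. The sarcoid of horse 1 was the lowest of the 4 for 5 of the 10 genes, members included, and for 20.9% of all targets. RGS1 was singled out after its values were seen.

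**Figure D5:**
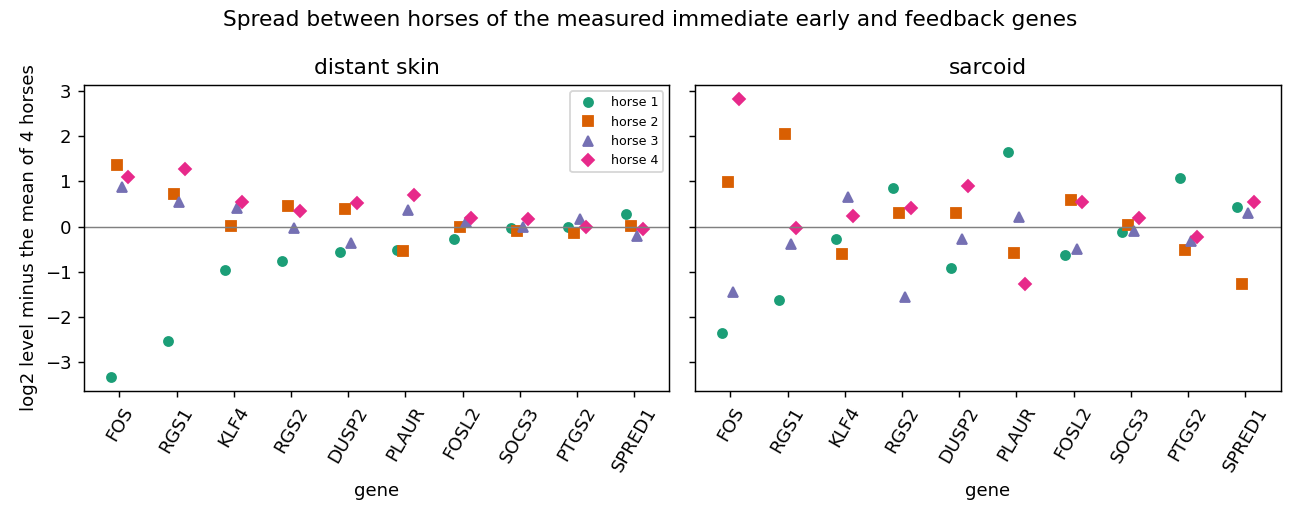
Log2 level minus the mean of the 4 horses (y axis) in distant skin (left) and in sarcoid (right) for the 10 measured immediate early and feedback genes (x axis). In skin, horse 1 lies far below the others for FOS and RGS1, while PTGS2, SPRED1 and SOCS3 (near the floor) differ little between horses.

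Markers of cell types that could carry these transcripts moved between the tissues as well, and their part in the ratios of FOS, KLF4 and DUSP2 was not tested. For comparison with the counts of such markers, 5.84% of all targets were called higher and 9.90% lower in the sarcoids. Beside KLF4, the 1 measured basal keratinocyte gene and 3 of 4 genes of differentiated keratinocytes were lower in the sarcoids. S100A7 and SPINK7, products of the upper epidermis, were at -5.13 ± 0.36 and -3.59 ± 0.06, and SPINK9 at -5.44 ± 1.01. The summed level of the 4 differentiated genes was 591 to 4511 in the sarcoids and 15739 to 126086 in the skins, in normalised intensity units. Only 2 of the 4 sarcoids gave a SPINK9 signal well above background. Of 7 gland genes 5 were lower, LATH (latherin) the most at -6.33 ± 0.26, and 1 of the 7 had a ratio above 0. The summed level of the 7 was 4367 to 7283 in the sarcoids against 303699 to 423966 in the skins. Most of the skin sum was LATH alone, at a log2 level of 18.04 to 18.63 there.

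Beside DUSP2, of the 3 genes of T and NK cells that were measured 0 passed in limma, 1 had an unadjusted p under 0.05 and 0 passed in the two-channel fit. GZMB (granzyme B) was at -0.31 ± 2.17 and CD2 at 0.60 ± 0.65. Of the 3 genes 2 had a ratio above 0, CD2 and the gene with the unadjusted p under 0.05. The summed level of the 3 was 666 to 9164 in the sarcoids and 1470 to 2507 in the skins. Its upper end in the sarcoids rests largely on GZMB in horse 2, at a log2 level of 13.09 against 8.77 to 10.56 in the other sarcoids. CD40, the only measured B cell gene, rose by 0.72 ± 0.31, and its level was 603 to 946 in the sarcoids and 423 to 501 in the skins. CSF1R rose by 1.24 ± 0.51 and was the only one of 4 myeloid genes that passed, with a summed level of 7446 to 21986 against 3829 to 9127. All 4 myeloid genes had a ratio above 0, 3 had an unadjusted p under 0.05 in limma and 1 passed in the two-channel fit. The CD40 call was lost with each horse left out (limma adjusted p = 0.066 to 0.104), and that of CSF1R without horse 2 (0.0674) and without horse 3 (0.0502).

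Other cell types gave a mixed picture beside FOS, which many cell types can express. The 8 fibroblast genes had a summed level of 895330 to 1271120 in the sarcoids and 152168 to 251037 in the skins. Of 5 endothelial genes VCAM1 rose, by 2.61 ± 0.78, and 4 did not pass, with a summed level of 5976 to 31473 against 3340 to 8018. TAGLN, of smooth muscle and pericytes, was at -0.10 ± 0.82, with a level of 1688 to 6267 against 2633 to 4635, and it was the only gene of its list, with 0 at an unadjusted p under 0.05 and 0 in the two-channel fit. Of 5 melanocyte genes PMEL fell by 2.16 ± 0.68, TYRP1 fell with no sarcoid signal well above background, and 3 did not pass. The summed level of the 5 was 1758 to 3818 in the sarcoids and 3935 to 5115 in the skins. Both erythrocyte genes passed the test, as did 15.7% of all targets. HBA2 fell by 1.33 ± 0.33, and HBB was at -0.76 ± 0.39, with a signal well above background in only 1 of the 4 sarcoids. The limma adjusted p of HBB was 0.0771 to 0.137 with each horse left out. The erythrocyte genes had a summed level of 218 to 286 against 540 to 615. Of 4 skeletal muscle genes 1, MB, fell, and 0 sarcoids gave an MB signal well above background. Their summed level was 490 to 647 in the sarcoids and 660 to 703 in the skins. With the background model on all spots LUM, BGN, KRT15 and LATH still passed, while S100A7, SPINK7, SPINK9, CD40, CSF1R, VCAM1, PMEL, TYRP1, HBA2, HBB and MB did not. The fibroblast genes SPARC, TBX15, VIM and FGF7 did not pass there either (limma adjusted p = 0.0767, 0.0904, 0.0641 and 0.174). Nor did the gland genes HSD3B2, SLC5A1 and CA6 (limma adjusted p = 0.0638, 0.162 and 0.179).

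The named genes whose 4 ratios lay nearest to each member were found among 842 genes, by the root mean square difference of the log2 ratios over the 4 horses. For KLF4 the nearest was CYP2D50, a cytochrome P450, at a difference of 0.16, with ratios of -0.40, -1.56, -1.08 and -1.58 in horses 1 to 4. The linker histone gene H1-5 followed at 0.36 and MDH2, the mitochondrial malate dehydrogenase, at 0.41. For DUSP2 the nearest was GSN (gelsolin, which severs actin filaments) at 0.21, with ratios of -1.81, -1.33, -1.22 and -0.56. MB followed at 0.29 and HSD17B4, a peroxisomal enzyme of fatty acid oxidation, at 0.31. GSN, picked because its ratios lay near those of DUSP2, had the same order of the horses as all 5 DUSP2 probes.

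FOS had no near match: its closest genes were CYP2A13 at 0.96, C1H15orf48 at 1.08 and PRNP at 1.11. C1H15orf48 had ratios of -1.22, -2.34, -4.71 and -2.81, with horse 3 lowest as for FOS. In 0 of the sarcoids was CYP2A13 or MB well above background, so their ratios rest on the skin signal against the floor of the sarcoid channel. A match over 4 horses is a description of these arrays.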

How the data were processed

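Per the submitters' processing notes, the arrays were read with Agilent Feature Extraction 11.5.1.1. The deposited files give, per the file headers, a median intensity for each spot and its local background (linear scale), and processed signals from which background was subtracted and the dye effect normalised. The log10 ratio in the deposited files is Cy5 over Cy3, and the authors' value table holds the same log10 values (largest difference 0).

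Spots with feature or background non-uniformity or feature population flags were left out, background was corrected by normexp (offset 50) and arrays were normalised by loess (control spots given no weight) with limma 3.58.1 and R 4.3.3. Repeat spots of a probe were averaged. Probes were kept if 3 or 4 arrays had them well above background in the same channel, and the brightest stood for its target. The 4 ratios of a target were tested against 0 by limma's moderated test (lmFit, eBayes; two-sided), and p-values were adjusted by Benjamini-Hochberg over 19608 targets. Levels are after Aquantile scaling between arrays. Leaving outlier spots out before the background fit follows an earlier analysis and was settled after its results were seen.

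The members and lists were chosen with earlier results of these data known. Named genes are the members, every measured gene of the 3 lists of immediate early and feedback genes, called genes of other lists (up to 4) or the 2 brightest, and the 3 genes nearest to each member. Further list genes named in the text were chosen after their values were seen. Of 43603 probes 2332 had a symbol, through RefSeq accessions. Coordinates and sequences are not used here. In simulated ratios with the spread of the 19608 targets, 37.0% of 100 targets lowered by 1 on the log2 scale and 73.0% of 100 lowered by 2 were recovered, with 1 false call. Far fewer targets were changed there than the 3087 called in the data. The adjusted p depends on that share, so these rates do not carry over to the arrays.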

Additional observations from a re-analysis of the deposited data

Results flagged for a closer look

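Within groups of 4 horses, 67 sets of values were examined for a horse far from the other 3, and 4 had one, while chance marks about 5% of such sets. The FOS level in skin was 11.60 in horse 1, far below the other 3 skins. The log2 ratio of VIM was 2.29 in horse 1, far above its other ratios, which lay between 1.32 and 1.39. The log2 ratio of BGN, the matrix proteoglycan biglycan, was 3.98 in horse 1, above 2.67 to 2.85 in the others. The log2 ratio of SPARC, a collagen-binding matrix protein, was 1.20 in horse 4, below 3.36 to 3.74 in the others.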

How the results depend on the processing

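The mean log2 ratios of FOS, KLF4 and DUSP2 stayed below 0 under every alternative run. Leaving out each horse in turn gave -3.68 to -2.34 for FOS, -1.42 to -0.98 for KLF4 and -1.41 to -1.18 for DUSP2. With the background model on all spots, DUSP2 was at -0.86, 240 targets differed in place of 3087, and 1 of the 28 list genes passed in place of 10. With outlier spots kept the values were -0.86, 241 and 1. Leaving out each horse gave 1466 to 2235 targets (1466 without horse 1, 1764 without horse 2) and 4 to 6 list genes. Of the calls, 37.1% were on the higher side, 48.2% with Agilent's processed signals and 18.6% on median centring. The pairing by horse was used throughout, since each ratio is taken within 1 horse. FOS and KLF4 rest on 1 probe each, and the dye and the tissue cannot be told apart.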
